A study of Mus musculus with 217 samples.

Results

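Endothelial adherens junctions were followed through 10 genes in the endothelial translatomes of brain, lung and heart: Cdh5, Cdh2, Pecam1, Esam, Ecscr, Ctnna1, Ctnnb1, Ctnnd1, Jup and Vcl. They were chosen by name, as the cadherins, adhesion molecules, catenins and actin linkers of endothelial cell (EC) contacts, and are 10 of the 52550 gene rows of the count data. The data are RNA-Seq counts of ribosome-bound RNA, pulled down with an antibody against an HA tag that only recombined cells carry. All mice, the 0 hr controls included, were adult C57BL/6J mice of the genotype Cdh5CreERT2/+; Rpl22HA/+. All had received tamoxifen by gavage, 5 mg given 4 times every other day from an age of 4 to 6 weeks. LPS (lipopolysaccharide of the bacterial wall) was then injected into the peritoneum at 10 mg per kg, and tissue was taken 6, 24, 48, 72 or 168 hr later. The 0 hr mice are labelled controls and had no LPS. Per the study's methods, the controls were injected with phosphate-buffered saline (PBS), which the labels do not state. Cre was driven by the promoter of Cdh5, which is itself among the genes described here.

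At adherens junctions, the cadherins of neighbouring cells bind each other outside the cell, and their tails hold catenins that link the contact to the actin cytoskeleton. In endothelium the main cadherin is VE-cadherin, and the junction is known for setting how much fluid and how many leukocytes leave the blood, which inflammation increases. Further adhesion molecules of the immunoglobulin family sit beside it at the cell border.

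After the runs of each library were summed and libraries with less than 3% of their reads on genes were left out, 80 of 98 libraries remained: 28 from brain, 24 from lung and 28 from heart. Groups held 4 to 6 libraries, except the lung at 24 hr with 2. Counts on genes ran from 7226796 to 32891759 in brain and from 8136031 to 33050750 in heart, but from 284457 to 43417945 in lung, where the share of reads on genes ran from 3.405% to 60.95%. File names fall into 4 patterns, here called library series 1 to 4. The 18 libraries left out are all of series 3, and series 4 has no 0 hr or 6 hr libraries. Nothing in the labels says that libraries of a group come from separate mice, so p-values measure the spread between these libraries.

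The 6 hr libraries of series 1, from a single mouse by file name, stood apart from the other 6 hr libraries. Their Saa3, an acute-phase gene, was at 1.08 CPM (counts scaled to a common library total) in brain and 0.957 CPM in heart, whereas the other 6 hr libraries were at 1328 to 1523 CPM (n = 4) in brain and 764 to 1170 CPM (n = 4) in heart. Icam1, a leukocyte adhesion receptor, showed the same split, at 36.8 against 270 to 921 CPM in brain and 123 against 1803 to 3548 CPM in heart. Lcn2, another acute-phase gene, was at 289 CPM in the brain and 46.7 CPM in the heart library, above 0 hr (up to 37.1 and 19.7 CPM) and below the other 6 hr libraries (4844 to 8542 and 3062 to 6792 CPM). The lung library of that mouse is the one with 284457 counts. Calls of the 10 genes at 6 hr are given with all libraries and without the 6 hr libraries of series 1, and those of other genes with all libraries. A heart library at 72 hr, replicate 1, stood apart too. Its Saa3 was at 0.658 CPM, Lcn2 at 12.3 CPM and Icam1 at 110 CPM, against 66.7 to 125, 581 to 3749 and 601 to 966 CPM in the other 3.

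Pan-endothelial marker genes other than the 10 described here were detected in every group, 20 of 20. Their summed level at 0 hr was 3562 to 6722 CPM in brain, below the 13094 to 23006 CPM in lung and the 18014 to 21338 CPM in heart. Transcripts of other cells were present too. At 0 hr the 10 neuron markers summed to 1474 to 5904 CPM in brain, the 8 lung epithelium markers to 6358 to 12168 CPM in lung, and the 10 cardiomyocyte markers to 4296 to 8798 CPM in heart. Astrocyte (1377 to 5120 CPM), oligodendrocyte (858 to 5860 CPM), fibroblast (476 to 1527 CPM) and pericyte and smooth muscle markers (164 to 2503 CPM) were found in brain as well. Among lung epithelium markers, Sftpc led with a mean of 5612 CPM and Sftpb was near 0. In such bulk samples, fewer cells of a type and less RNA per cell cannot be told apart.

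Baseline levels across the 3 tissues were compared first. In the heart, 9 of the 10 genes were higher, and none lower, than the average of brain and lung. In the brain, 8 were lower and only Cdh2 was higher. In the lung, 4 were higher and 3 lower. The comparison was always with the average of the remaining tissues. Cdh2 was thus called higher in both heart and brain, each set against an average that includes lung, with 0 to 8 counts per library. Calls are edgeR quasi-likelihood F tests with a Benjamini-Hochberg adjusted p under 0.05. Tissue differences were common among all genes: 58.2% of 17730 genes were called in heart, 58.5% in brain and 62.4% in lung. By direction, 27.7% of genes were called higher and 30.5% lower in heart, 35.1% and 23.4% in brain, and 28.0% and 34.4% in lung. Over the 10 genes the log2 fold change had its median at 1.42 in heart, at -1.80 in brain and at 0.37 in lung, against -0.07, 0.22 and -0.35 over all genes.

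Pan-endothelial markers moved with this pattern, 18 of 20 lower in brain (median -1.69) and 17 of 20 higher in heart (median 1.32). When libraries were scaled by those markers in place of all genes, which moved the median of all genes by 1.71 in brain and -1.49 in heart, the split became 3 higher and 2 lower in brain and 1 higher and 2 lower in heart. Below, values on the scale of pan-endothelial markers are added for some of the calls, since directions depend on the scaling. All other values are on the scale of all genes.

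**Figure D1:**
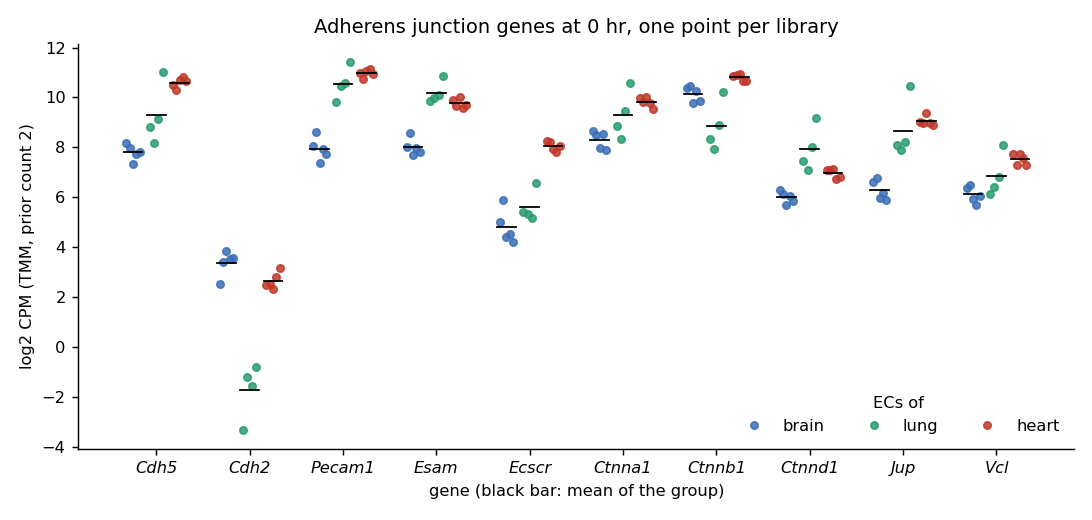
Levels of the 10 genes at 0 hr in log2 CPM (vertical axis), 1 point per library, with a black bar at the mean of each tissue (brain n = 5, lung n = 4, heart n = 5). Heart libraries lie above all others for Ecscr (7.80 to 8.25) and above all but 1 lung library (11.04) for Cdh5 (10.30 to 10.81), and lung libraries lie below the others for Cdh2 (-3.35 to -0.82).

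Cdh5 encodes VE-cadherin and lies at chr8:104101625-104144511 (mm10, plus strand). In brain its levels at 0 hr were 8.16, 7.97, 7.34, 7.73 and 7.79 log2 CPM. Heart libraries held 10.49, 10.30, 10.70, 10.81 and 10.65. In lung they were 8.82, 8.19, 9.12 and 11.04. Brain and heart did not overlap, while lung libraries covered the range between them and the highest lung library stood above every heart library. Brain was 5.10-fold lower than the other tissues (log2 fold change -2.35 ± 0.38 SE, adjusted p = 8.5e-05) and heart 3.99-fold higher (2.00 ± 0.35, adjusted p = 2.0e-04), and lung did not pass the test (0.35, adjusted p = 0.43). Relative to pan-endothelial markers, Cdh5 was at -0.55 in brain (adjusted p = 0.073) and 0.58 in heart (adjusted p = 0.063), so that neither call remained.

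Cdh2 encodes N-cadherin, which ECs share with neurons and heart muscle cells and use for contacts with pericytes. Its levels were low: 2.52, 3.40, 3.83, 3.50 and 3.54 log2 CPM in brain, and 2.47, 2.50, 2.32, 2.82 and 3.17 in heart. In lung, counts per library were between 0 and 8, which gives -3.35, -1.23, -1.57 and -0.82 log2 CPM. Lung lay far below both other tissues, which overlapped. The lung difference was a log2 fold change of -4.71 ± 0.44 (adjusted p = 6.1e-07), and its size rests on these few counts in lung. Brain was higher at 2.86 ± 0.30 (adjusted p = 9.0e-07). Between brain and heart the log2 difference of 0.67 ± 0.32 did not pass (adjusted p = 0.087). Scaled by pan-endothelial markers, Cdh2 was at 4.58 in brain (adjusted p = 1.7e-09) and at 0.46 in heart (adjusted p = 0.21). The neuron markers of the brain libraries and the cardiomyocyte markers of the heart libraries stand above, and their part in the Cdh2 counts was not tested.

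Among adhesion molecules, Pecam1 (CD31, chr11:106654217-106750628, minus strand), a receptor at the EC border through which leukocytes pass, was at 8.04, 8.60, 7.37, 7.94 and 7.74 log2 CPM in brain. Lung libraries held 9.80, 10.44, 10.58 and 11.41, and heart libraries 10.97, 10.75, 11.08, 11.15 and 10.93. Every brain library was below every lung and heart library, and the last 2 tissues overlapped. The brain log2 fold change of -2.90 ± 0.31 (adjusted p = 9.5e-07) remained called relative to pan-endothelial markers, at -1.22 (adjusted p = 1.2e-04). Heart (1.71 ± 0.26) and lung (1.19 ± 0.27) were both called higher, and between them the difference was -0.35 ± 0.32 (adjusted p = 0.36).

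Esam (chr9:37528078-37538319, plus strand), an immunoglobulin-type adhesion molecule of ECs and platelets, was at 7.70 to 8.56 log2 CPM in brain, 9.84 to 10.85 in lung and 9.58 to 10.02 in heart. Here the lung mean of 10.19 ± 0.45 (SD, n = 4) stood above the heart mean of 9.77 ± 0.18 (SD, n = 5), although the difference did not pass (0.43 ± 0.25, adjusted p = 0.16). Scaled by pan-endothelial markers, Esam was lower in heart than in the other tissues (-0.78, adjusted p = 0.0034), the reverse of the main value of 0.69.

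Ecscr encodes a small membrane protein of the EC surface that takes part in cell migration and survival. In brain its levels at 0 hr were 5.01, 5.91, 4.40, 4.53 and 4.19 log2 CPM, in lung 5.39, 5.33, 5.15 and 6.59, and in heart 8.25, 8.20, 7.93, 7.80 and 8.06. All heart libraries stood above every other library, and brain and lung overlapped. Ecscr was 7.30-fold higher in heart (2.87 ± 0.22, adjusted p = 8.9e-08), and among the 10 genes it was the only 1 still higher in heart on the scale of pan-endothelial markers (1.41, adjusted p = 6.7e-06). Lung was lower on both scales, at -0.82 and -1.02.

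Catenins differed among themselves. Ctnnb1 (beta-catenin, chr9:120929216-120960507, plus strand), which binds the cadherin tail and is also the effector of Wnt signals, was at 10.37, 10.45, 9.76, 10.27 and 9.87 log2 CPM in brain. Heart libraries were at 10.88, 10.92, 10.95, 10.67 and 10.67, and lung libraries at 8.34, 7.92, 8.88 and 10.22. Of the 10 genes, Ctnnb1 was alone in not passing the test between brain and the other tissues (0.18 ± 0.29, adjusted p = 0.61), and lung was lowest, at -1.47 ± 0.34 (adjusted p = 0.0015). On the scale of pan-endothelial markers it was higher in brain by 1.93 (adjusted p = 7.8e-07). Ctnna1 (alpha-catenin), which couples beta-catenin to actin, was at 7.89 to 8.67 in brain, 8.34 to 10.57 in lung and 9.56 to 10.02 in heart, and heart was called higher (0.99 ± 0.28, adjusted p = 0.0065) with -0.44 (adjusted p = 0.11) on the other scale.

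Ctnnd1 (p120-catenin, chr2:84600071-84650765, minus strand), which keeps cadherins at the membrane, was at 5.67 to 6.29 log2 CPM in brain, 7.11 to 9.17 in lung and 6.73 to 7.13 in heart. It was higher in lung (1.60 ± 0.25, adjusted p = 6.0e-05), lower in brain (-1.59 ± 0.26, adjusted p = 8.7e-05), and at -0.01 (adjusted p = 0.98) in heart. Of its 7319 exon bases, 4482 are shared with the annotated gene Gm28635 on the same strand, so that the counts may cover only the rest. Jup (plakoglobin, chr11:100368958-100397763, minus strand), which can replace beta-catenin at the cadherin tail and also joins desmosomes, was at 6.60, 6.79, 5.98, 6.19 and 5.88 log2 CPM in brain. In heart it was at 9.01, 8.98, 9.37, 8.97 and 8.89, and in lung at 8.09, 7.89, 8.21 and 10.47. Brain lay below both, by 6.78-fold (-2.76 ± 0.37, adjusted p = 1.2e-05), and stayed called relative to pan-endothelial markers (-0.98, adjusted p = 0.0018). Vcl (vinculin, chr14:20929398-21033676, plus strand), which joins alpha-catenin to actin when the junction is pulled, was at 5.69 to 6.51 in brain, 6.12 to 8.10 in lung and 7.29 to 7.75 in heart. Its brain value of -1.22 ± 0.27 became 0.55 (adjusted p = 0.024) on the scale of pan-endothelial markers. Exons of Vcl (2090 bases) and Ctnnb1 (759 bases) overlap genes on the opposite strand, and the strand setting of the counting is not given in the sources used here.

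Between single tissues, 23 of 30 tests passed, beside 64.3% of all genes for brain against lung, 54.8% for brain against heart and 61.1% for lung against heart. Brain was lower than heart for Cdh5 (-2.90), Pecam1 (-3.07), Jup (-2.87), Ecscr (-3.28), Esam (-1.81), Ctnna1 (-1.58), Vcl (-1.499) and Ctnnd1 (-1.05), and Cdh2 and Ctnnb1 did not pass. Scaled by pan-endothelial markers, the last 4 turned direction, to 0.28 for Esam, 0.54 for Ctnna1, 0.64 for Vcl and 1.07 for Ctnnd1. Lung was lower than heart for Ecscr (-2.46), Cdh2 (-4.37), Ctnnb1 (-1.84) and Cdh5 (-1.09, adjusted p = 0.044) and higher for Ctnnd1 (1.08), and the other 5 genes did not pass. The Cdh5 call between lung and heart was kept on leaving out 3 of 14 libraries (from -1.82 to -0.77) and lost on leaving out any other, with all 98 libraries, with no covariate for library series, within series 1 and on the scale of pan-endothelial markers.

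For most of the 10 genes, though not Ecscr, the lung libraries varied more than those of the other tissues at 0 hr, with an SD of 1.23 for Cdh5 and 1.21 for Jup, against 0.20 and 0.18 in heart. Replicate 4 held the highest level of 10 of the 10 genes in lung, and 56.16% of its reads lay on genes against 18.83% to 28.61% in the other 3. Whether this share played a part was not tested.

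Levels can be compared between genes only per length of exon. In log2 CPM per kilobase of exon at 0 hr, Ctnnb1 was the highest of 9 genes in brain (7.77), ahead of Esam (6.50), Cdh5 (5.73) and Ctnna1 (5.63). Heart had Cdh5 (8.52), Ctnnb1 (8.44), Pecam1 (8.34) and Esam (8.25) close together, and lung Esam (8.67), Pecam1 (7.92) and Cdh5 (7.22). Vcl (3.08 in brain) and Cdh2 (0.35) were the lowest in brain. Ctnnd1 is left out here because of its shared exons.

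The response to LPS was compared next, each time point against 0 hr within its tissue. Of 50 tests per tissue (10 genes at 5 times), 9 were called in heart (2 higher, 7 lower), 8 in brain (6 higher, 2 lower) and none in lung. Over all genes the shares were 12.7%, 7.08% and 1.20%. No gene of the 10 was called at 168 hr in any tissue.

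**Figure D2:**
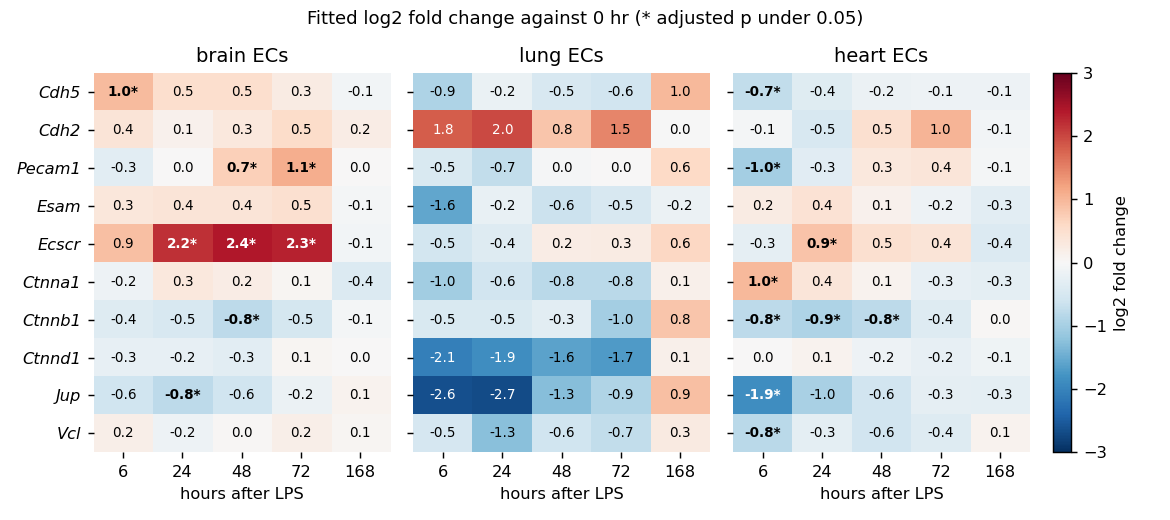
Log2 fold change of each gene against 0 hr at 5 times in brain, lung and heart, from blue (lower) through white to red (higher), with a star where the adjusted p was under 0.05. Heart at 6 hr has the most stars (6 of 10 genes, Jup lowest at -1.87), and Ecscr is red in brain at 24, 48 and 72 hr (2.18, 2.39 and 2.30). Cdh2 in lung, which rests on 0 to 8 counts per library at 0 hr, has no star.

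Heart changed most at 6 hr. Jup, Pecam1, Vcl, Ctnnb1 and Cdh5 fell, Ctnna1 rose, and Esam, Ecscr, Ctnnd1 and Cdh2 did not pass. At that time 42.8% of all 16024 genes were called (22.4% higher and 20.3% lower), so 6 of 10 is not far from the background. Without the 6 hr library of series 1 the same 6 genes were called, beside 58.4% of all genes.

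Jup fell most. Its 6 hr heart libraries were at 5.94, 5.84, 5.37 and 6.99 log2 CPM, and the series 1 library at 9.06, against 8.89 to 9.37 at 0 hr. The first 4 libraries all lay below every 0 hr library, and that of series 1 lay among them. The log2 fold change was -1.87 ± 0.42 (3.65-fold lower, adjusted p = 0.0017) with all libraries and -2.89 ± 0.27 (adjusted p = 4.9e-09) without the series 1 library. At 24 hr Jup was at 8.39, 8.27, 8.21 and 8.17, still below every 0 hr library, but the difference passed only without the 6 hr library of series 1 (-0.86 ± 0.26, adjusted p = 0.017, against -0.98 ± 0.46, adjusted p = 0.13, with it; the background without it was 26.0%).

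Pecam1 was at 8.84, 9.44, 8.66 and 10.44 log2 CPM in heart at 6 hr and at 10.99 in the series 1 library, where 0 hr libraries held 10.75 to 11.15. Again the 4 libraries were below all of 0 hr. The log2 fold change was -1.03 ± 0.32 (adjusted p = 0.013), or -1.46 ± 0.29 (adjusted p = 1.7e-04) without the series 1 library. By 24 hr the levels were 10.84, 10.53, 10.93 and 10.65, overlapping 0 hr.

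Cdh5 was at 9.30, 10.23, 8.52, 9.87 and, in series 1, 10.56 at 6 hr, against 10.30 to 10.81 at 0 hr. Its fall was -0.73 ± 0.27 (adjusted p = 0.032) and -1.01 ± 0.26 (adjusted p = 0.0020) without the series 1 library. With all libraries, the call for Cdh5 was lost on leaving out replicate 3, 4 or 5 at 0 hr or replicate 1, 3 or 4 at 6 hr, where the log2 fold change was between -0.73 and -0.53.

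Ctnnb1 was at 9.82, 10.07, 9.36, 9.87 and, in series 1, 10.66 at 6 hr. All but the last were below the 0 hr libraries (10.67 to 10.95). Its log2 fold change was -0.78 ± 0.22 (adjusted p = 0.0079), and -1.08 ± 0.21 without the series 1 library. Of the 10 genes, Ctnnb1 was called lower in heart for longest: at 24 hr (9.89, 9.96, 9.87 and 9.31, -0.93 ± 0.25, adjusted p = 0.019) and at 48 hr (-0.79 ± 0.22, adjusted p = 0.038). The 48 hr call of Ctnnb1 was kept on leaving out 16 of 28 libraries and lost without any of the 5 libraries at 0 hr or 7 others (from -0.83 to -0.64), and the 24 hr call was lost without replicate 1 or 2 at 24 hr (-0.89 and -0.97). Of 15 alternative analyses, 10 kept the 24 hr call and 8 the 48 hr call. Both were lost in a fit of all 3 tissues, on the scale of pan-endothelial markers and without series 4.

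Vcl was at 6.34, 6.94, 6.24, 7.11 and, in series 1, 6.81 at 6 hr, all below the 0 hr range of 7.29 to 7.75. Here the series 1 library lay among the other 6 hr libraries. The difference was -0.82 ± 0.24 (adjusted p = 0.0090) and -0.88 ± 0.26 without it.

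Ctnna1 moved the other way. Its 6 hr levels in heart were 11.26, 11.02, 11.10, 10.47 and, in series 1, 9.64, against 9.56 to 10.02 at 0 hr. The first 4 stood above every 0 hr library. The log2 fold change was 0.97 ± 0.24 (1.96-fold higher, adjusted p = 0.0032), and 1.25 ± 0.19 (adjusted p = 5.4e-06) without series 1. The alpha- and beta-catenin transcripts thus moved in opposite directions on the scale of all genes, while relative to pan-endothelial markers Ctnnb1 was at 0.28 and did not pass.

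**Figure D3:**
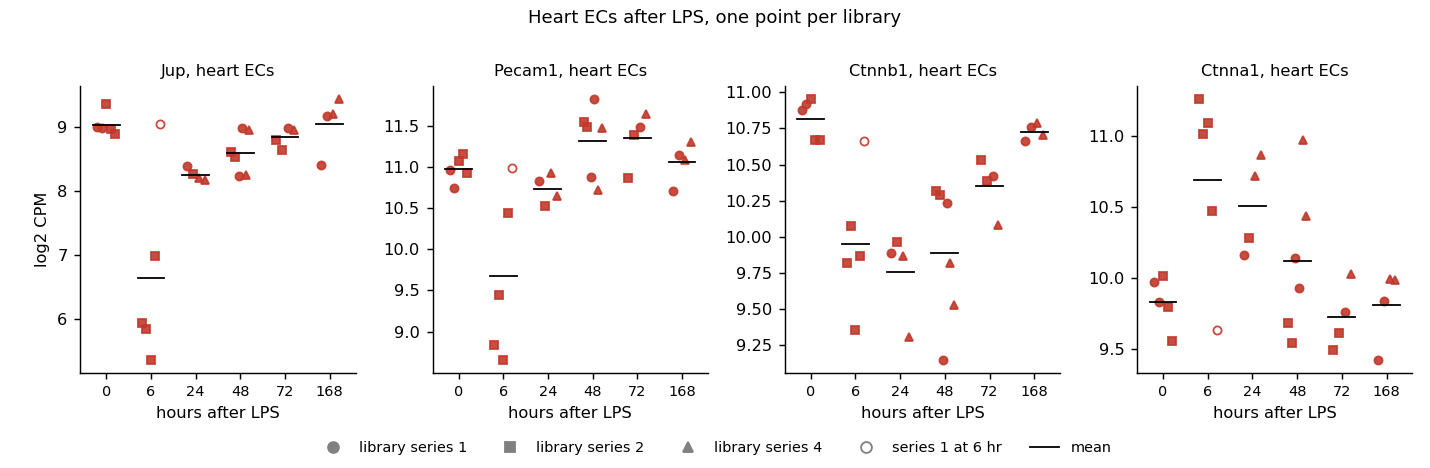
Levels of Jup, Pecam1, Ctnnb1 and Ctnna1 in heart libraries (vertical axis, log2 CPM) at 0, 6, 24, 48, 72 and 168 hr after LPS. Circles are series 1, squares series 2 and triangles series 4, a black line is the mean, and the open circle at 6 hr is the series 1 library that stays near the 0 hr level (Jup at 9.06), apart from the 4 squares (5.37 to 6.99).

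Pan-endothelial markers also fell in heart at 6 hr: 14 of 20 were called lower and 2 higher, with a median of -0.99. Their sum went from 18014 to 21338 CPM at 0 hr to 10579 to 11443 CPM in the 4 libraries, and was 21044 CPM in the series 1 library. When libraries were scaled by those markers, the split over the heart responses became 6 higher and 1 lower in place of 2 and 7. At 6 hr on that scale, Jup was still lower (-1.06, adjusted p = 0.0010) and Ctnna1 higher (2.36). Pecam1 was at -0.08 (adjusted p = 0.80), and Cdh5 (0.33), Ctnnb1 (0.28) and Vcl (0.32) were no longer lower. In the same libraries the 5 platelet and megakaryocyte markers summed to 55.6 to 123 CPM, against 4.20 to 7.83 CPM at 0 hr and 3.83 CPM in the series 1 library. Nearly all of this was Pf4 (mean 63.3 CPM), with Itga2b at 1.88 and Ppbp at 0.0788 CPM, and its part in these levels was not tested.

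In heart, Ecscr was called higher at 24 hr. Levels were 9.38, 8.47, 9.26 and 9.58 log2 CPM, all above the 0 hr range of 7.80 to 8.25, with a log2 fold change of 0.86 ± 0.22 (adjusted p = 0.013). That call was kept in 11 of 15 alternative analyses. It was lost in a fit of all 3 tissues, within series 1 or series 2 and without series 4. On leaving out each of 28 libraries, it was lost only without replicate 1 at 24 hr. The 24 hr background was 16.2% of all genes, against 2 of 10 here. At 48 hr, 1 of the 10 was called (background 4.19%), and none at 72 hr (0.275%) or 168 hr (0.00%), where Jup was back at 8.42 to 9.44. Without replicate 1 at 72 hr, in which the acute genes were low, Cdh2 was called higher in heart at that time (1.23 ± 0.32, adjusted p = 0.049, background 1.52%), and the other 9 genes were not. That library was singled out after its values were seen, and the call lies close to the threshold. Cdh2 levels at 72 hr were 3.60, 3.69 and 4.40 log2 CPM, and 2.94 in replicate 1, against 2.32 to 3.17 at 0 hr.

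RefSeq promoter windows (250 bases before to 50 after an annotated start, GRCm38.p6) were at hand for 4 of the 10 genes, and are shown for Jup, Vcl and Ctnnb1, which fell together in heart at 6 hr. All are written 5′ to 3′ on the strand of the gene, with GGGCGG (the SP1 and KLF core, on either strand) and TATAAA in capitals. The Jup window is chr11:100397741-100398040 (minus strand), that of Vcl chr14:20929148-20929447 (plus strand) and that of Ctnnb1 chr9:120933328-120933627 (plus strand).
Jup: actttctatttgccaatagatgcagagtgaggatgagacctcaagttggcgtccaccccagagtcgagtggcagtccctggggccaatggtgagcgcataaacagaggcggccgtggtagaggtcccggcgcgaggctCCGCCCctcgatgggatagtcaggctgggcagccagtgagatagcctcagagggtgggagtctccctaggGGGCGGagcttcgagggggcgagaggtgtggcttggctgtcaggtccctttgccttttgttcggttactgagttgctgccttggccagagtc
Vcl: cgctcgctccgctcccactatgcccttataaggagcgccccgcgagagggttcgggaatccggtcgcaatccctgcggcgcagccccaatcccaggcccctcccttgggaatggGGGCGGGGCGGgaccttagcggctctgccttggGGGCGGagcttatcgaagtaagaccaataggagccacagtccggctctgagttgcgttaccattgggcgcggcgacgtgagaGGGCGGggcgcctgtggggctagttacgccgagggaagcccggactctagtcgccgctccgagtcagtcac
Ctnnb1: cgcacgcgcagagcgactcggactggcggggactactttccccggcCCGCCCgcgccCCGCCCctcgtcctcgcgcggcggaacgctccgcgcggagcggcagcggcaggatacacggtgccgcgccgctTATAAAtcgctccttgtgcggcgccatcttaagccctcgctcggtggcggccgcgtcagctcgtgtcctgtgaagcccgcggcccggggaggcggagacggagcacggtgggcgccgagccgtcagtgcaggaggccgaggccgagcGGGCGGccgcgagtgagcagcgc
GGGCGG occurred 2 times in the Jup window, 4 times in that of Vcl (of which 2 share a base) and 3 times in the Ctnnb1 window shown, which also held TATAAA. The other Ctnnb1 window held GGGCGG 3 times and no TATAAA. Bases G and C made up 60.7% of the Jup, 66.7% of the Vcl and 75% of the Ctnnb1 window shown, against a median of 52.7% over all windows. Over all 32851 windows, 35.7% held GGGCGG and 13.6% TATAAA. The 4 genes have 6 windows (Ctnnd1 and Ctnnb1 have 2 each). None of these held the 1 narrow form of the NF-kappaB motif searched, ending in 3 T and 2 C (1.63% of all windows). Looser forms of that motif were not searched. Their absence is thus not shown for any window, that of Jup included. On either strand, none of the 6 held the AP-1 motif TGANTCA (7.81%) or the GATA motif AGATAAG (3.04%). The ETS core CAGGAA was in 1 of the 6, a window of Ctnnd1 (30.6% of all windows), and another ETS core, CCGGAA, in the same window (14.9%). These are matches of letters in a short window and not binding sites.

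In brain the response centred on Ecscr, which rose to a plateau from 24 to 72 hr and was back at 168 hr. At 24 hr its levels were 7.72, 6.76, 8.10 and 8.00 log2 CPM. At 48 hr they ran from 5.86 through a median of 8.21 to 8.47 (n = 6), and at 72 hr they were 6.45, 6.62, 7.33 and 8.72. All libraries at 24 and 72 hr, and all but the lowest at 48 hr, stood above every 0 hr library (4.19 to 5.91). The log2 fold changes were 2.18 ± 0.33 (4.55-fold, adjusted p = 2.3e-04) at 24 hr, 2.39 ± 0.31 (5.25-fold, adjusted p = 5.1e-05) at 48 hr and 2.30 ± 0.32 (4.92-fold, adjusted p = 1.2e-04) at 72 hr. All 3 calls held on leaving out each of 28 libraries in turn.

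Within a library series the pattern was the same in direction. In series 2 Ecscr went from 4.19 to 4.53 log2 CPM at 0 hr to 6.76 at 24 hr, 5.86 and 6.28 at 48 hr, and 6.45 and 6.62 at 72 hr, and a fit of that series alone gave 2.43, 1.77 and 2.23 (adjusted p = 8.1e-04, 0.0062 and 0.0023). In series 1 it went from 5.01 and 5.91 to 7.72, to 8.23 and 8.39, and to 7.33, with 2.24, 2.91 and 1.88 and no adjusted p under 0.05 (0.20, 0.067 and 0.60). At 48 hr the series 2 libraries were thus lower than the 8.20 to 8.47 of series 1 and 4, and their Lcn2, an acute-phase gene, was lower too (299 and 955 CPM against 7628 to 26003 CPM). Neuron markers also differed, summing to 2539 and 3580 CPM in the series 2 libraries at 48 hr and to 764 to 1412 CPM in the others. Their part in the size of the rise was not tested. Over all brain libraries the fibroblast markers summed to a median of 1093 CPM at 0 hr and of 4048, 2365 and 1309 CPM at 24, 48 and 72 hr. Oligodendrocyte markers went from 4126 to 799, 599 and 1740 CPM, and neuron markers from 4251 to 1257, 1168 and 2381 CPM, and their part in the rise was not tested either. Scaled by pan-endothelial markers, Ecscr was at 2.47, 2.22 and 1.87, each called.

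At 6 hr Ecscr in brain was at 5.19, 5.13, 5.44, 6.04 and, in series 1, 5.20, overlapping 0 hr. Its rise of 0.91 ± 0.30 missed the threshold (adjusted p = 0.072) and passed without the series 1 library (1.21 ± 0.27, adjusted p = 0.0022). By 168 hr it was at 6.13, 5.17, 5.65 and 5.71, about the top of the 0 hr range. The fit, which takes the library series into account, gave a log2 fold change of -0.08 for Ecscr at that time (adjusted p = 0.97).

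Cdh5 was called higher in brain at 6 hr, the opposite of heart on the scale of all genes. Relative to pan-endothelial markers Cdh5 was no longer lower in heart, and the test between brain and heart did not pass with all libraries. Levels in brain were 8.51, 9.40, 8.67, 8.21 and, in series 1, 7.93 log2 CPM, against 7.34 to 8.16 at 0 hr. The 4 libraries other than that of series 1 were all above 0 hr. The log2 fold change was 0.95 ± 0.27 (adjusted p = 0.032, background 6.44%) with all libraries and 1.22 ± 0.24 (adjusted p = 6.6e-04, background 14.3%) without that of series 1, where Ecscr, Esam (0.55 ± 0.17, adjusted p = 0.033) and Jup (-0.82 ± 0.23, adjusted p = 0.018) were called too. Within series 2 Cdh5 was at 7.34 to 7.79 at 0 hr and 8.21 to 9.40 at 6 hr. With all libraries, the call for Cdh5 was lost on leaving out replicate 2, 3, 4 or 5 at 0 hr or replicate 2 or 3 at 6 hr, with values from 0.62 to 1.01.

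Pecam1 rose in brain later. At 48 hr it ran from 8.38 through a median of 8.63 to 9.32 log2 CPM, and at 72 hr it was at 8.45, 8.72, 9.40 and 9.45, against 7.37 to 8.60 at 0 hr. The groups overlapped by the highest 0 hr library. Log2 fold changes were 0.71 ± 0.20 (adjusted p = 0.019) and 1.08 ± 0.21 (2.11-fold, adjusted p = 0.0031), and neither passed within series 2 (0.79 and 0.95, adjusted p = 0.23 and 0.20). Scaled by pan-endothelial markers both remained called, at 0.52 and 0.66.

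Ctnnb1 fell in brain as it did in heart. It ran from 9.05 through a median of 9.36 to 9.78 log2 CPM at 48 hr, against 9.76 to 10.45 at 0 hr, so that only the highest library reached the 0 hr range. The log2 fold change was -0.77 ± 0.16 (adjusted p = 0.0037), a call that held on leaving out each of 28 libraries. It was kept in 12 of 15 alternative analyses, and lost in a fit of all 3 tissues and within series 1 or series 2. At 168 hr Ctnnb1 was at 10.16 to 10.31. Jup was called lower at 24 hr only (5.83, 5.86, 5.05 and 5.02 against 5.88 to 6.79, -0.79 ± 0.25, adjusted p = 0.040). That call was kept in 7 of 15 alternative analyses and on leaving out 13 of 28 libraries, and was lost without any of 3 libraries at 24 hr, 3 at 0 hr or 9 others. Called in brain were thus 1 of 10 at 6 hr, 2 at 24 hr (background 11.2%), 3 at 48 hr (14.2%), 2 at 72 hr (3.53%) and none at 168 hr (0.00%).

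**Figure D4:**
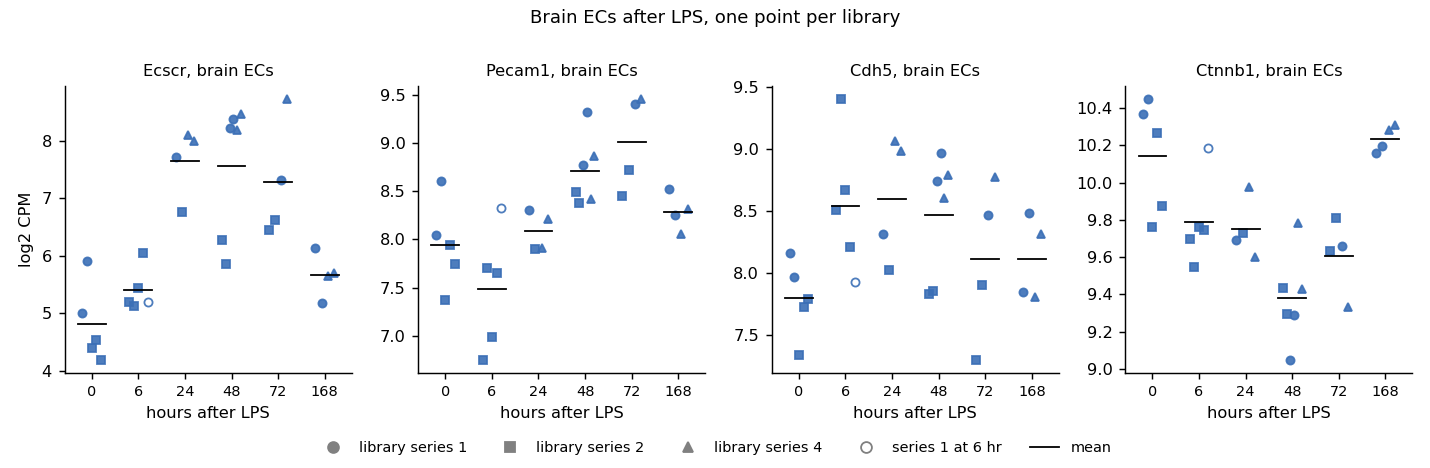
Levels of Ecscr, Pecam1, Cdh5 and Ctnnb1 in brain libraries (vertical axis, log2 CPM) from 0 to 168 hr after LPS, with circles for series 1, squares for series 2, triangles for series 4, an open circle for series 1 at 6 hr and a black line at the mean. Ecscr is raised from 24 to 72 hr in each series, with the squares lowest at 48 hr (5.86 and 6.28).

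In lung, none of the 50 tests was called (background 4.83%, 0.375%, 0.598%, 0.193% and 0.0117% at the 5 times in order, and 3.95% at 6 hr without the series 1 library). At an unadjusted p under 0.05, 7 were lower and 0 higher, where 5.17% of all tests of all genes were lower. DESeq2 called 5 lower, and 4.00% of all tests in either direction. All 7 were of Jup, Ctnnd1 or Esam. Jup was at 5.30, 7.36 and 5.41 log2 CPM at 6 hr, and had no count in the series 1 library, against 7.89 to 10.47 at 0 hr. All were below 0 hr. The log2 fold change of -2.63 ± 0.82 missed the threshold (adjusted p = 0.056), and was -2.18 ± 0.83 (adjusted p = 0.13) without the series 1 library.

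Ctnnd1 in lung was at 5.86, 5.35 and 6.66 at 6 hr, with no count in the series 1 library, against 7.11 to 9.17 at 0 hr. At 24 hr (6.78 and 6.35) and at 72 hr (5.47, 6.59, 6.46 and 6.55) each library was below every 0 hr library. At 48 hr Ctnnd1 was at 5.28 to 7.63 (n = 6), with 2 libraries within the 0 hr range, and at 168 hr it was at 7.74 to 8.98. Its log2 fold changes were -2.05 ± 0.64 (adjusted p = 0.055), -1.85 ± 0.81 (adjusted p = 0.72), -1.61 ± 0.55 (adjusted p = 0.23) and -1.69 ± 0.60 (adjusted p = 0.41) at 6, 24, 48 and 72 hr. Esam was at 7.95, 7.64, 9.77 and, in series 1, 6.85 at 6 hr, against 9.84 to 10.85, with -1.57 ± 0.66 (adjusted p = 0.15). The series 1 level of Esam rests on 4 counts. Without the series 1 library the 6 hr values were -1.66 ± 0.60 for Ctnnd1 (adjusted p = 0.11) and -1.10 ± 0.60 for Esam (adjusted p = 0.29). All these lung values are on the scale of all genes. Scaling by pan-endothelial markers moved the median of all genes by 1.61 in lung at 6 hr.

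Depth and cell makeup moved with these lung values. The 4 libraries at 6 hr held 2678119, 2745503, 40128330 and 284457 counts, with 6.928%, 8.124%, 33.870% and 3.405% of reads on genes. In the deepest of them Jup was at 5.41 and Ctnnd1 at 6.66, below 0 hr, while Esam at 9.77 was close to it. The 9 leukocyte markers, mostly S100a8 and S100a9, summed to 1742 to 3676 CPM in the 3 series 2 libraries, against 52.8 to 222 CPM at 0 hr, and pan-endothelial markers to 2631 to 14705 CPM against 13094 to 23006 CPM. Over the 4 libraries lung epithelium markers summed to 260 to 26462 CPM at 6 hr and to 2136 to 3394 CPM at 24 hr, against 6358 to 12168 CPM at 0 hr, and cardiomyocyte markers to 139 to 2914 CPM at 6 hr against 79.0 to 160 CPM. Their part in the values was not tested. Over the lung libraries as a whole, Cdh5 and Jup were highest where most reads lay on genes: the libraries with over 50% (replicate 4 at 0 hr and 3 of 4 at 168 hr) held Cdh5 at 11.04 to 11.59 and Jup at 10.12 to 10.47.

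**Figure D5:**
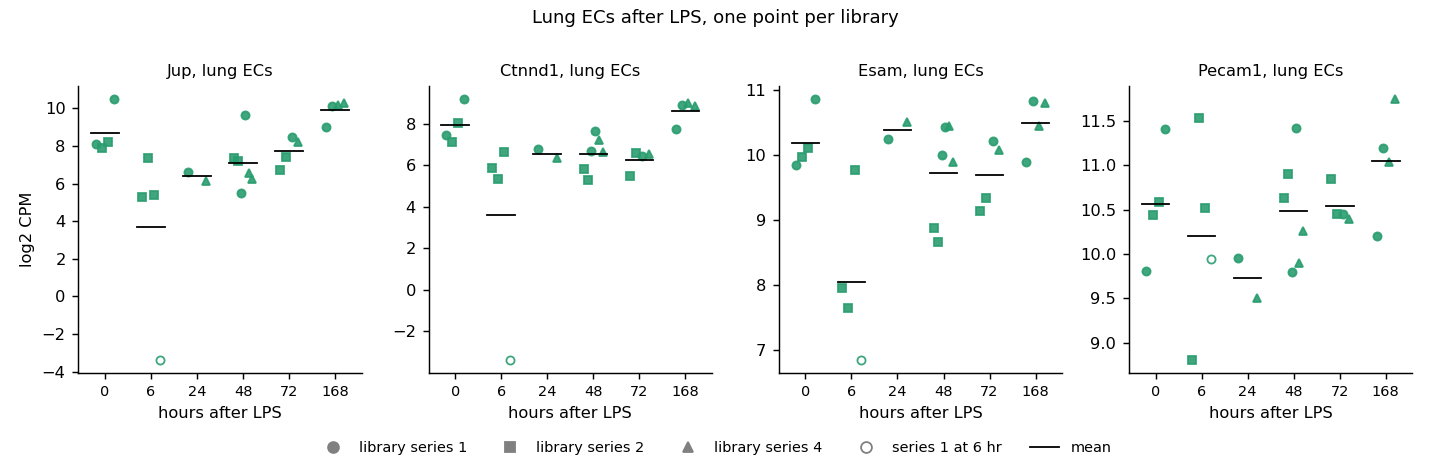
Levels of Jup, Ctnnd1, Esam and Pecam1 in lung libraries (vertical axis, log2 CPM) from 0 to 168 hr after LPS, with circles for series 1, squares for series 2, triangles for series 4, an open circle for series 1 at 6 hr and a black line at the mean. Jup and Ctnnd1 lie below 0 hr at 6 hr and 24 hr, the open circle at -3.35 stands for a count of 0, and Pecam1 overlaps 0 hr throughout.

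Whether the response differed between tissues was tested as an interaction in a fit of all 80 libraries, in which tissues of 1 mouse enter as separate libraries. This fit takes 1 spread per gene over all tissues, while lung libraries varied more for most of the 10 genes at 0 hr. The SE of a difference with lung may thus be too small. For Esam and Ctnnd1 at 6 hr it was below the SE of the change in lung alone given above. Of 150 tests (10 genes, 5 times, 3 pairs of tissues), 12 were called, against 2.93% over all genes. Ecscr accounted for 5 of them. Its change in brain exceeded that in lung by 3.31 ± 0.62 at 24 hr (adjusted p = 4.3e-04), 2.52 ± 0.47 at 48 hr (6.1e-04) and 2.397 ± 0.52 at 72 hr (0.015), and that in heart by 2.19 ± 0.45 at 48 hr (0.010) and 2.10 ± 0.50 at 72 hr (0.030), where the background was 0.463% and 0.318%. For brain against lung it was 3.85%, 3.54% and 0.377% at these times. The brain and heart difference at 72 hr was kept in 9 of 15 alternative analyses and on leaving out 9 of 18 libraries (from 1.60 to 2.31), and lost without replicate 1, 3, 4 or 5 of brain or 5 of heart at 0 hr, replicate 5 of brain or 2, 3 or 5 of heart at 72 hr. That between brain and lung was lost at 72 hr without replicate 5 of brain at 72 hr, and at 24 hr without replicate 3 of lung at 24 hr.

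At 6 hr the log2 change in brain exceeded that in lung for Cdh5 (by 2.10 ± 0.63), Esam (1.90 ± 0.43) and Ctnnd1 (1.92 ± 0.46). The change in lung was below that in heart for Ctnnd1 (-2.23 ± 0.46), Ctnna1 (-2.14 ± 0.49) and Esam (-1.85 ± 0.43). At that time 13.3% and 18.1% of all genes differed between these pairs of tissues. Without the series 1 libraries (13.7% and 19.7%) all 6 were called, at 2.13, 1.84 and 1.81 against lung and at -2.20, -2.14 and -1.66 against heart, and so was Jup between brain and lung (1.98, adjusted p = 0.039). With all libraries the Cdh5 difference was lost without replicate 4 of lung at 0 hr. Between brain and lung, the Cdh5 and Ctnnd1 calls were each kept in 10 of 15 alternative analyses. Both were lost with all 98 libraries, on the scale of pan-endothelial markers and within series 2. The remaining 6 hr differences were each kept in 12 or 13 of 15. With only libraries of at least 15% of reads on genes, which leaves 1 lung library at 6 hr, none of these 6 hr differences passed. At 72 hr the change of Ctnnd1 in brain exceeded that in lung by 1.86 ± 0.45, which was kept in 5 of 15 alternative analyses and on leaving out 6 of 17 libraries (from 1.30 to 2.16). It was lost without any of the 5 brain libraries at 0 hr, replicate 1, 2, 3 or 5 of brain at 72 hr, replicate 4 of lung at 0 hr or replicate 1 of lung at 72 hr, and with mouse as a random block in limma-voom. Between brain and heart at 6 hr no gene of the 10 passed with all libraries (background 0.636%). Without the series 1 libraries (background 6.36%) Cdh5, which rose in brain and fell in heart, differed by 2.13 ± 0.57 (adjusted p = 0.013), and Jup, which fell in both, by 2.15 ± 0.62 (adjusted p = 0.022).

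Other genes of the junction were followed as 4 lists, on the scale of all genes. Scaling by pan-endothelial markers moved the median of all genes by 1.17 in heart, 0.73 in brain and 1.61 in lung at 6 hr, and the counts of the lists below were not recomputed on it. The heart counts at 6 hr stand beside 42.8% of all genes called, and 3 of the 4 are near it. In heart at 6 hr, other catenins and actin linkers had 5 of 22 higher and 11 lower. Actn1, which cross-links actin, rose by 2.21 ± 0.39 (adjusted p = 2.3e-04) on the log2 scale. Of 13 other cadherins and nectins, 5 fell and none rose, among them Pcdh12 (VE-cadherin-2), with -2.11 ± 0.58 (adjusted p = 0.0064). Pcdh12 also fell in lung at 6 hr (-3.44 ± 0.76, adjusted p = 0.0086).

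The phosphatases, kinases and proteases of the junction had 5 of 17 higher and 3 lower in heart at 6 hr. Ptprb (VE-PTP), the phosphatase that binds VE-cadherin, fell in heart (-2.27 ± 0.63, adjusted p = 0.0069) and lung (-2.55 ± 0.75, adjusted p = 0.044) at 6 hr and in brain at 24 hr (-1.72 ± 0.49, adjusted p = 0.026). Ptprk, another receptor phosphatase, rose in heart by 1.75 ± 0.33 (adjusted p = 3.6e-04). Of the 9 desmosome and intercalated disc genes 3 rose and 1 fell, and Dsp (desmoplakin) was lower at 24 hr (-1.29 ± 0.37, adjusted p = 0.025).

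In brain, 5 of 24 other catenins and actin linkers rose and 3 fell at 24 hr, beside 11.2% of all genes, with Zyx (zyxin) at 1.36 ± 0.29 (adjusted p = 0.0048) and Ablim1, an actin-binding LIM protein, at -2.14 ± 0.55 (adjusted p = 0.014). Other cadherins and nectins had 4 of 16 higher and 3 lower at 48 hr, beside 14.2%, with Mcam (CD146), an EC adhesion molecule, at 1.74 ± 0.46 (adjusted p = 0.014), and Nectin2 rose by 1.49 ± 0.20 (adjusted p = 1.1e-04) at 72 hr. Mcam also rose in heart at 24 hr (1.47 ± 0.31, adjusted p = 0.0048).

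At baseline, Pcdh12 and Mcam were lower in brain than in the other tissues by log2 fold changes of -6.15 ± 0.39 and -4.47 ± 0.45. Cdh1 (E-cadherin), a cadherin of epithelium, was higher in lung by 6.57 ± 0.60, beside the lung epithelium markers given above. Cdh13 (T-cadherin) was higher in heart by 3.90 ± 0.24, and so were the muscle junction genes Nrap (6.75 ± 0.30) and Dsp (4.07 ± 0.28), beside cardiomyocyte markers of which 10 of 10 were higher there. Ctnna2 and Ctnnd2, the neuronal forms of alpha- and delta-catenin, were higher in brain by 11.05 ± 0.50 and 8.11 ± 0.39, beside 9 of 10 neuron markers. The part of such cells was not tested.

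Over the 18 group means (3 tissues at 6 times), the patterns of Cdh5 and Ctnna1 were alike (Pearson r = 0.893), as were those of Cdh5 and Jup (0.858) and of Ctnnd1 and Jup (0.858), whereas Cdh2 had r = -0.403 with Pecam1. Among 4569 genes with a mean of at least 5 log2 CPM, Jup was most like Arhgef3 (0.978), Arhgap27 (0.971) and Stard8 (0.969), Esam most like Pdlim1 (0.971), Ctnnd1 most like Pitpnc1 (0.953) and Kit (0.951), and Ecscr most like Gimap6 (0.915). Cdh5 was most like Pacsin2 (0.920). The r values are descriptions. For Jup (3.68, SD 4.78) and Ctnnd1 (3.63, SD 4.69) the lung mean at 6 hr includes the series 1 library, with no count of either gene. Its part in r was not tested. The 18 points share tissues and libraries, and how their spread divides between tissues and times was not computed.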

How the data were processed

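RNA-Seq was performed on HA pull-downs of ribosome-bound RNA from 217 sequencing runs of 98 libraries. Per the study's methods and the submitters' processing notes, the authors aligned reads with STAR 2.4.2 to mm10 and counted them per gene with HTSeq 0.6.1, and the deposited values are raw counts per gene. Runs of 1 library were summed, rows naming no gene were kept out of library sizes, and 18 libraries with under 3% of reads on genes (155176 to 1330479 counts) were left out. Of the Ensembl gene IDs, 52403 of 52550 matched a symbol, and coordinates are those of GENCODE on mm10. The members and lists were chosen with earlier results of these data known, and the acute-phase genes after their values were seen.

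Levels are log2 CPM with TMM scaling and a prior count of 2. Tests were two-sided edgeR 4.0.16 quasi-likelihood F tests in R 4.3.3 (filterByExpr, TMM, library series as covariate, Benjamini-Hochberg over all genes tested, threshold 0.05): a 0 hr fit between tissues, a fit per tissue against 0 hr, and a joint fit for differences between tissues. An SE was taken from the fold change and F, as the log2 value over the root of F. The scripts were tested on simulated data. Genes named beside the 10 were, per list and tissue, up to 2 with the largest absolute log2 fold change among those called with a mean of at least 4 log2 CPM, at baseline and after LPS. Lists of 17 other cadherins and nectins (1 unmatched), 25 other catenins and actin linkers, 17 junction phosphatases, kinases and proteases and 9 desmosome genes were used, with marker lists for 10 cell types. Alternatives included DESeq2 1.42.0, limma-voom (limma 3.58.1), other scalings, filters and subsets of libraries. Some items are not reported here.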

Additional observations from a re-analysis of the deposited data

Results flagged for a closer look

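Of 170 groups of 4 to 6 libraries, 16 held a library far from the rest of its group in the level of a gene (log2 CPM), where chance flags about 1 in 20. The lung holds 9 of the 16. At 0 hr, lung replicate 4 stood above the others in Jup (10.47, others 7.89 to 8.21) and Ecscr (6.59, others 5.15 to 5.39). At 48 hr, lung replicate 4 stood above them in Vcl (7.91, others 5.48 to 6.12) and Ecscr (7.34, others 4.87 to 5.79). In these libraries 56.16% and 44.35% of reads lay on genes. At 168 hr, lung replicate 1, with 23.78% on genes against 50.51% to 60.95%, stood below them in Jup (8.99, others 10.12 to 10.29) and Ctnnd1 (7.74, others 8.85 to 8.98). At 72 hr, lung replicate 1 was low in Ctnnd1 (5.47, others 6.46 to 6.59) and high in Pecam1 (10.85, others 10.40 to 10.45). The lung library at 6 hr with no count of Ctnnd1 (-3.35, others 5.35 to 6.66) is the shallow one of series 1. The part of the share of reads on genes was not tested.

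In heart, Jup was high in replicate 3 at 0 hr (9.37, others 8.89 to 9.01), Ecscr low in replicate 1 at 6 hr (6.67, others 7.76 to 8.02) and Ctnnb1 low in replicate 5 at 24 hr (9.31, others 9.87 to 9.96). At 48 hr Cdh2 was high in heart replicate 4 (4.03, others 2.84 to 3.27) and Ctnnd1 in heart replicate 1 (6.96, others 6.63 to 6.75), and at 168 hr Vcl was low in heart replicate 1 (6.64, others 7.87 to 8.10). In brain at 24 hr, replicate 4 was above the others in Ctnnd1 by a small step (5.86, others 5.80).

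The response to LPS differed between tissues, by an interaction term of the edgeR fit, in 12 of 150 tests. That fit shares its spread over all tissues, so calls with lung may rest on too small an SE. For Ecscr the log2 difference of the changes was 3.31, 2.52 and 2.397 between brain and lung at 24, 48 and 72 hr, and 2.19 and 2.10 between brain and heart at 48 and 72 hr. The change in brain exceeded that in lung at 6 hr for Cdh5 (2.10), Esam (1.90) and Ctnnd1 (1.92), and at 72 hr for Ctnnd1 (1.86). The change in lung was below that in heart at 6 hr for Ctnnd1 (-2.23), Ctnna1 (-2.14) and Esam (-1.85).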

How the results depend on the processing

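Over tissues, 14 values of the 10 genes were called higher and 11 lower at baseline, and 23 between pairs of tissues. With all 98 libraries 9 were higher and 14 pairs called. Scaled by pan-endothelial markers 8 were higher and 7 lower, and within library series 1 there were 3 higher, 6 lower and 9 pairs. Leaving out 1 library each gave 13 to 14 higher, 11 lower and 21 to 27 pairs.

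After LPS, brain had 6 higher and 2 lower. A joint fit of the tissues gave 3 and 0, no covariate for series 3 and 1, pan-endothelial scaling 12 and 4, and series 1 alone 0 and 0. Lower calls in brain were 4 with DESeq2, 1 with all 98 libraries, with the replicate block or without series 4, and 0 within series 2. Lung had 0 and 0: the joint fit gave 1 higher and 9 lower, DESeq2 5 lower, no covariate 2 lower, and limma-voom, no low-count filter and the replicate block 1 lower each. Heart had 2 higher and 7 lower: the joint fit gave 1 and 2, pan-endothelial scaling 6 and 1, series 1 alone 0 and 0, series 2 alone 1 higher, and leaving out series 4 gave 1 and 4. Leaving out 1 library each gave 4 to 8 higher and 1 to 3 lower in brain, 1 to 3 and 5 to 8 in heart, and 0 and 0 to 3 in lung. The 12 differences between tissues became 7 with all 98 libraries, 19 with DESeq2, 0 and 7 within series 1 and 2, 6 without series 4, and 9 to 15 on leaving out 1 library. The cause of these shifts was not tested. Series 2 has no 168 hr libraries, so no value was had there. The options without series 4, at least 15% of reads on genes and without the 6 hr libraries of series 1 were chosen after seeing the data. So was the heart fit without replicate 1 at 72 hr.

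Pan-endothelial scaling turned the direction of 17 called values. At baseline these were, in brain, Vcl (0.55), Ctnnd1 (0.16) and Ctnna1 (0.37), and in heart Esam (-0.78), Ctnnb1 (-0.13), Vcl (-0.41) and Ctnna1 (-0.44). Between brain and lung they were Vcl (0.45), Ctnna1 (0.20) and Ecscr (0.42), and between brain and heart Esam (0.28), Vcl (0.64), Ctnnd1 (1.07) and Ctnna1 (0.54). In heart at 6 hr they were Ctnnb1 (0.28), Vcl (0.32) and Cdh5 (0.33). Within series 1, whose 6 hr libraries had Saa3 near the 0 hr level, Cdh5 in brain at 6 hr was at -0.20, and in heart Jup at 0.091, Pecam1 at 0.16, Cdh5 at 0.19 and Ctnna1 at -0.24.

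Replicate numbers were not taken to pair a time with 0 hr, since of 57 such pairs 12 had a correlation of deviations over 0.1. Between tissues, 44 of 73 same-numbered pairs did, close to the 48 of 74 pairs that share a mouse by file name. Neither pairing entered the main fits, and both were used in alternatives. With mouse as a random block, 13 differences between tissues were called, that of Ctnnd1 at 72 hr not among them. With the replicate block, lower calls were 1 in brain and 1 in lung. A prior count of 0.5 moved 0 of 180 group means by over 1 SD, and library totals in place of TMM moved 53. Depth limits the lung most, where a 6 hr library held 284457 counts and the 24 hr group 2 libraries.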
